A study of Mus musculus with 6 samples.

Results

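The genes described here encode the enzymes that set the flow of fructose 6-phosphate into glycolysis. They were chosen by symbol and function and not by a rule on their values, although earlier results of these data were known. They are 3 phosphofructokinase genes (Pfkm, Pfkl and Pfkp) and 4 genes of bifunctional 6-phosphofructo-2-kinase/fructose-2,6-bisphosphatase enzymes (Pfkfb1, Pfkfb2, Pfkfb3 and Pfkfb4). The others are 2 fructose bisphosphatase genes (Fbp1 and Fbp2). All 9 were among the 34714 gene symbols counted. Of the 15788 genes with enough counts to be tested, 8 were among these 9, and Fbp1 was not.

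RNA was sequenced from the gastrocnemius (Gas) muscle, a calf muscle, of 3 wild-type (WT) and 3 miR-92b knockout (M92KO) male mice that were 8 weeks old and untreated. The M92KO mice were a purchased global knockout line on C57BL/6JGpt, with both copies of the microRNA gene deleted in every tissue, and the controls were age-matched C57BL/6 mice. The sources do not say that the controls were littermates, so line and genotype cannot be told apart. Each numbered replicate gave 1 library, and the labels mention no pooling. The level of miR-92b was not analysed here, so these counts hold no check of the deletion.

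Libraries held between 33160508 and 48209846 counts, with the M92KO libraries the smaller ones throughout. Levels are given in CPM, counts scaled by edgeR's TMM library sizes. The detection floor was set at 3 counts (at most 0.0916 CPM), and it reflects counting error alone. The first M92KO library stood apart from the others of its group. The chi-square per degree of freedom between replicates was 58.3 and 57.99 for M92KO replicate 1 against M92KO replicates 2 and 3, and 11.1 between those other M92KO libraries. The WT libraries also differed, with 12.8 for replicates 1 and 2, 29.05 for 1 and 3 and 19.5 for 2 and 3. Log2 fold changes of the phosphofructokinase, Pfkfb and fructose bisphosphatase genes are also given without M92KO replicate 1 where their call or size depended on it. Markers of fast muscle fibres (Acta1, Ckm, Myh4, Mylpf, Tnnt3 and Tnni2) summed to between 89412 and 103987 CPM, and 0 of 6 had an unadjusted p-value under 0.05. The 6 fibroblast markers summed to 1709 to 2270 CPM in WT and 1151 to 1597 CPM in M92KO libraries, without overlap, and 3 of 6 (Col1a1, Col1a2 and Dcn) were lower at an unadjusted p-value under 0.05. So were Ptprc among 5 leukocyte markers and 2 of 4 Schwann cell markers, whereas 0 of the slow fibre, fat cell, red cell and endothelial markers were. The leukocyte markers went both ways, with log2 fold changes from -0.53 to 0.42. Of all genes tested, 6.92% were lower at this threshold and 0 passed after adjustment in edgeR. In 18.4% of them the M92KO values lay all on one side of the WT values. The tissue was sequenced in bulk, so fewer cells of a type and less RNA per cell cannot be told apart.

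Phosphofructokinase uses ATP to convert fructose 6-phosphate into fructose 1,6-bisphosphate, the committed step of glycolysis, and fructose bisphosphatase catalyses the opposite step. The strongest known activator of phosphofructokinase is fructose 2,6-bisphosphate, which also inhibits fructose bisphosphatase and is both made and removed by the bifunctional Pfkfb enzymes. Active enzyme is a tetramer of muscle (Pfkm), liver (Pfkl) and platelet (Pfkp) subunits, and skeletal muscle relies on the muscle form. The enzymes are also strongly regulated by metabolites and phosphorylation, which RNA counts do not measure.

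Both arms of the deleted microRNA come from 1 hairpin gene on chromosome 3. Their mature sequences are shown because the seed (bases 2 to 8, in capitals) gives the letters looked for in the 3′-UTRs of the 9 genes. They are the RefSeq sequences on the minus strand of GRCm38.p6, at chr3:89227126-89227147 for the 3p arm and chr3:89227165-89227188 for the 5p arm.
miR-92b-3p: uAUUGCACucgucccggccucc
miR-92b-5p: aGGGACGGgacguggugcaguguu

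The 3′-UTRs were taken from the GENCODE M21 transcripts of GRCm38. A match to the 3p seed was present in 3 of the 9 genes, and a match to the 5p seed in 0 of 9. Among 20919 genes with an annotated 3′-UTR, 13.3% held a 7mer or 8mer match to the 3p seed and 25.7% any match of at least 6 bases. For the 5p seed these shares were 4.54% and 7.89%. The 3 stretches are shown in transcript direction, with the bases that pair with the seed region, and an A opposite base 1 where the match has it, in capitals. They lie at chr1:130690640-130690647 on the minus strand (an 8mer in 3 of the 8 Pfkfb2 transcripts with a 3′-UTR), at chr9:109032183-109032189 on the plus strand (a 7mer in 2 of 2 Pfkfb4 transcripts) and at chr13:62864855-62864860 on the minus strand (a 6mer in 2 of 2 Fbp1 transcripts).
Pfkfb2: agcaggctgaaGTGCAATAtgaatgctagt
Pfkfb4: tccagcattcttTGCAATAaatactttaaa
Fbp1: agcttaatgcttTGCAATgcccaaggtcac

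No match lay in the annotated 3′-UTRs of Pfkm, Pfkl, Pfkp, Pfkfb1, Pfkfb3 or Fbp2. A seed match is a description of letters, and the data do not measure binding. The levels of the genes with a match are given below with those of the others.

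Within the group, Pfkm dominated. Levels of different genes can only be set side by side per length, and they are given here as CPM per kilobase of merged exon (GENCODE M21). In WT muscle, this level was 1642 ± 21.8 for Pfkm (mean ± SD, n = 3) and 97.5 ± 17.2 for Pfkfb3, the second in the order. Next came Fbp2 with 19.97 ± 2.89, Pfkfb1 with 18.8 ± 0.95 and Pfkfb4 with 16.2 ± 2.03 CPM per kb, 3 neighbours whose libraries overlapped. Pfkfb2 followed with 9.26 ± 0.46 CPM per kb, below all of these. Pfkl (1.64 ± 0.086 CPM per kb) and Pfkp (1.46 ± 0.12 CPM per kb) were low, and Pfkl was at a level 1000.4 times below Pfkm. Their order and their distance from Pfkm depended on the length used. With merged exons of protein-coding transcripts only, Pfkl had 2.88, Pfkp 4.35 and Pfkm again 1642 CPM per kb. The same change of length put Pfkfb1 at 33.6, Pfkfb4 at 22.7 and Fbp2 at 21.7 CPM per kb. Fbp1 was last.

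**Figure D1:**
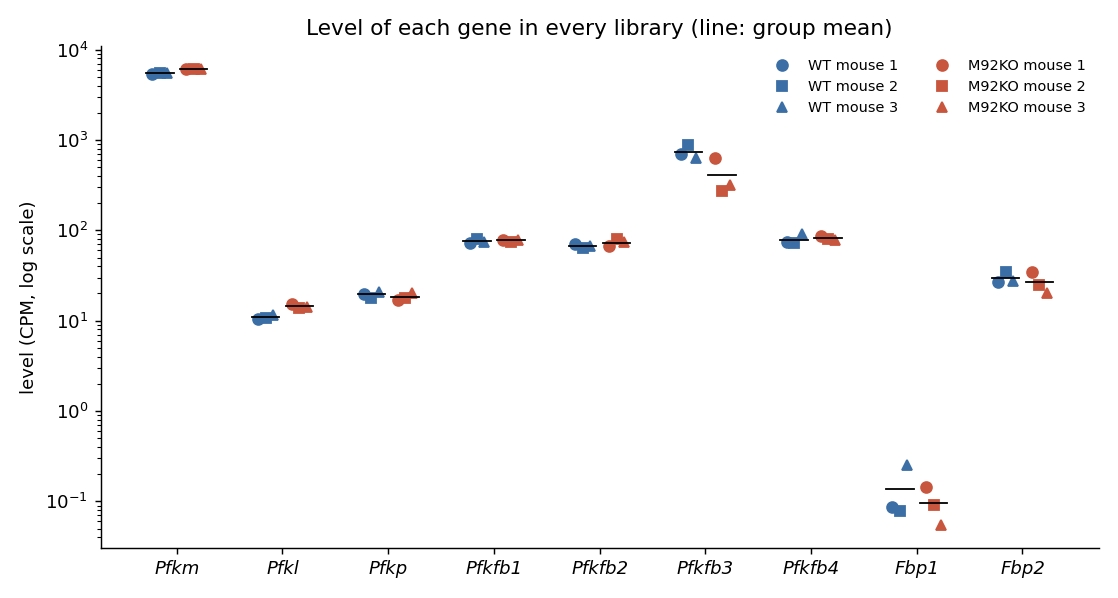
Level of each of the 9 genes in CPM (log scale) in every library, with WT libraries in blue, M92KO libraries in red, a marker shape for each replicate number and a line at each group mean. Pfkm lies near 5485 CPM in WT mice, and the M92KO libraries of Pfkm and Pfkl sit above all WT libraries, whereas in Pfkfb3 only M92KO replicates 2 and 3 lie below them.

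Pfkm encodes the muscle subunit (ENSMUSG00000033065, chr15:98092589-98132451, plus strand). Its level was 5408, 5493 and 5553 CPM in the WT libraries and 6095, 6134 and 6037 CPM in the M92KO libraries. All M92KO libraries lay above all WT libraries, and both groups were tight, with a coefficient of variation of 1.33% in WT mice. The log2 fold change of Pfkm was 0.15 (SE 0.081, 95% interval -0.03 to 0.33), with an adjusted p-value of 0.509 in edgeR's quasi-likelihood test. Without M92KO replicate 1 it was again 0.15, with an unadjusted p-value under 0.05 and an adjusted p-value of 0.241 in edgeR. Exons of Pfkm overlap those of Senp1 on the other strand, a gene with 550 to 945 counts, and 8.83% of the 50-base stretches of its transcripts also occur in the overlapping gene Gm26513. The strandedness of the counting is not given in the sources used here, and the counts of Pfkm ran from 200843 to 265031.

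Pfkl encodes the liver subunit (ENSMUSG00000020277, chr10:77986947-78010083, minus strand), and no exon of another gene overlaps it. It was 1 of the 2 genes of the group that passed an unadjusted p-value of 0.05. The WT libraries held 10.5, 10.7 and 11.6 CPM and the M92KO libraries 15.2, 13.8 and 14.3 CPM. Every M92KO library was above every WT library, by 1.32-fold in the fitted means (95% interval 1.14 to 1.52). On the log2 scale this difference was 0.40 (SE 0.091), with an adjusted p-value of 0.181 in edgeR. DESeq2's Wald test gave an adjusted p-value of 0.0363, and this was the only gene of the 9 with one under 0.05 in that test. Counts of Pfkl ran from 415 to 554 a library, so the level is much less deeply sampled than that of Pfkm. Leaving out 1 library at a time gave log2 fold changes of Pfkl from 0.36 (without M92KO replicate 1) to 0.44, and the unadjusted p-value stayed under 0.05 in 6 of 6 fits. Since Pfkl is the liver subunit and is also made by blood cells, markers of those cells are given with it. Of 4 liver cell markers, Apoa1, Ttr and Cps1 were at or under the floor in every library, and the list summed to at most 0.165 CPM. The 5 red cell markers summed to 74.0 to 223 CPM in WT and 143 to 336 CPM in M92KO libraries, with 0 of 5 at an unadjusted p-value under 0.05. The part of red cells in the Pfkl level was not tested, nor was that of the fibroblast markers above.

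Pfkp encodes the platelet subunit (ENSMUSG00000021196, chr13:6579768-6648777, minus strand). It had 19.8, 17.8 and 20.97 CPM in WT libraries and 16.8, 17.7 and 20.1 CPM in M92KO libraries, so the groups overlapped. Pfkp had a log2 fold change of -0.10 (SE 0.10, 95% interval -0.33 to 0.13), with an adjusted p-value of 0.733 in edgeR. Pfkp was at -0.049 without M92KO replicate 1, at -0.050 without WT replicate 3 and at -0.17 and -0.18 without WT replicate 2 and M92KO replicate 3. Its exons overlap those of Pitrm1 on the opposite strand, with 1482 to 2266 reads against 579 to 1001 for Pfkp.

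Whether the subunits differed from each other in their response was tested on ratios within a library, which need neither a length nor a library size. The log2 ratio of Pfkl to Pfkm was -9.00, -9.00 and -8.90 in WT libraries and -8.65, -8.80 and -8.72 in M92KO libraries. It was higher in all M92KO libraries, by 0.25 (exact permutation p = 0.1, two-sided, adjusted p = 0.2 over 4 ratios). The smallest p-value that 3 mice against 3 allow in this test is 0.1. The log2 ratio of Pfkp to Pfkm was lower by 0.25 on average (-8.14 ± 0.12 in WT and -8.39 ± 0.14 in M92KO libraries, n = 3 each), and the groups overlapped (exact permutation p = 0.2, adjusted p = 0.267). These shifts are small beside the dominance of the muscle subunit. Pfkm made up 99.8% of the per-length level of the phosphofructokinases in every library. Pfkl made up 0.0997% ± 0.0040 in WT and 0.118% ± 0.0061 in M92KO libraries (exact permutation p = 0.1, adjusted p = 0.28 over 7 shares). Summed over the 3 genes, the level was 1645 ± 21.9 CPM per kb in WT and 1826 ± 14.4 CPM per kb in M92KO libraries, without overlap and nearly all from Pfkm.

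Among the Pfkfb genes, Pfkfb3 stood out (ENSMUSG00000026773, chr2:11471433-11554077, minus strand, no overlapping exon). Its enzyme has far more kinase than phosphatase activity, so it mainly makes the activator fructose 2,6-bisphosphate, and the gene is known to be induced by hypoxia and growth signals. The WT libraries held 701, 881 and 628 CPM, and the M92KO libraries 630.3, 271 and 316 CPM. M92KO replicates 2 and 3 lay far below every WT library, whereas M92KO replicate 1 lay level with the lowest WT library, so the groups overlapped. The log2 fold change was -0.86 (SE 0.29, 95% interval -1.53 to -0.20), a fitted fold of 0.55, with an unadjusted p-value under 0.05 but an adjusted p-value of 0.305 in edgeR. The difference rested on which libraries were compared. Without M92KO replicate 1, the library that stood apart over all genes, it was -1.33 (SE 0.14) with an adjusted p-value of 0.00655 in edgeR. It lost its unadjusted p-value under 0.05 without M92KO replicate 2 (-0.64), without M92KO replicate 3 (-0.71) and without WT replicate 2 (-0.71). The study's own steps of quantile normalization and limma gave -1.001, also without an unadjusted p-value under 0.05. Within the M92KO group, the coefficient of variation of Pfkfb3 was 48.3%, and only 37 of 8745 genes with a mean of at least 10 CPM varied more. Fibroblast markers, lower in the M92KO group, were lowest in M92KO replicate 1, in which Pfkfb3 was highest in its group, and their part in the Pfkfb3 result was not tested.

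Short stretches of the Pfkfb3 promoters are shown because hypoxia-inducible factors, which the study also examined, are known to bind a core of letters that includes ACGTG. The windows searched were the RefSeq promoters of GRCm38.p6 (250 bases before to 50 after each start), on both strands, with the longer motif CACGTG counted as a match too. Both Pfkfb3 windows held a match, at chr2:11502126-11502155 and chr2:11553973-11554002 on the minus strand, with the match in capitals.
Pfkfb3 start 1: cacccttctctcCACGTGaaagggggctgg
Pfkfb3 start 2: cctccgcgccgtgACGTGccaagctgtgac

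Of all 32851 windows, 19.6% held ACGTG on either strand and 7.15% held CACGTG. Among the other genes of the group, Pfkm held a match in 2 of 4 windows, Pfkfb2 in 2 of 3 and Fbp2 in 1 of 1. Pfkfb1 had no ACGTG in 4 windows, and Pfkl, Pfkp, Pfkfb4 and Fbp1 none in 1 window each. The related core GCGTG was not counted, and some windows hold it, including those of Pfkl, Pfkp and Pfkfb4. Nothing about binding can be read from these letters.

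Pfkfb1 encodes the enzyme known from liver and, from another start site, from muscle (ENSMUSG00000025271, chrX:150588229-150643878, plus strand). It had 72.6, 79.9 and 74.4 CPM in WT libraries and 78.4, 74.5 and 78.8 CPM in M92KO libraries. The groups overlapped, with a log2 fold change of 0.03 (SE 0.067, 95% interval -0.12 to 0.18, adjusted p-value of 0.901 in edgeR), and one of 0.019 without M92KO replicate 1. This interval is the narrowest of the 8 genes tested. Over 50 bases of exon, Pfkfb1 overlaps Apex2 on the other strand (280 to 508 reads).

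Pfkfb2 encodes the form known from heart and kidney (ENSMUSG00000026409, chr1:130689182-130729253, minus strand) and is the gene with the 8mer match shown above. The WT libraries held 70.7, 64.0 and 66.8 CPM, and the M92KO libraries 66.3, 79.4 and 73.3 CPM. M92KO replicates 2 and 3 were above all WT libraries and M92KO replicate 1 was not. Over all 6 libraries, Pfkfb2 had a log2 fold change of 0.12 (SE 0.082, 95% interval -0.07 to 0.31), with an adjusted p-value of 0.617 in edgeR. Without M92KO replicate 1 it was 0.18, with an unadjusted p-value under 0.05 and an adjusted p-value of 0.194 in edgeR. Exons of Pfkfb2 overlap those of Yod1 on the other strand (174 to 352 reads), and 22.9% of its 50-base stretches also occur in Gm29427, so its 2303 to 3266 reads are uncertain.

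Pfkfb4 encodes a form known from testis and from hypoxic cells (ENSMUSG00000025648, chr9:108991778-109032228, plus strand), and holds the 7mer match. It had 74.0, 72.7 and 90.5 CPM in WT libraries and 86.1, 80.3 and 78.9 CPM in M92KO libraries. The highest library was a WT one, and the groups overlapped. In the fit, Pfkfb4 had a log2 fold change of 0.05 (SE 0.095, 95% interval -0.17 to 0.26, adjusted p-value of 0.881 in edgeR), and it was -0.0090 without WT replicate 2 and 0.0089 without M92KO replicate 1. For both genes with a 7mer or 8mer match, the interval of the difference over all 6 libraries included 0. Without M92KO replicate 1, that of Pfkfb2 was 0.032 to 0.34. Whether the matches had a part in these levels was not tested.

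The makeup of the Pfkfb transcripts differed between libraries, since Pfkfb3 was lower in 2 of 3 M92KO libraries. Over all 6 libraries, the intervals of the other Pfkfb genes included 0. The log2 ratio of Pfkfb3 to Pfkfb1 was 3.27, 3.46 and 3.08 in WT libraries and 3.01, 1.86 and 2.001 in M92KO libraries. All M92KO values lay below all WT values, although M92KO replicate 1 was close to the lowest WT value. The mean difference was -0.98 (exact permutation p = 0.1, adjusted p = 0.2 over 4 ratios), and -1.34 without M92KO replicate 1. As a share of the summed per-length level, Pfkfb3 took 68.3%, 72.8% and 64.2% in WT libraries and 64.3%, 43.8% and 47.6% in M92KO libraries (exact permutation p = 0.2, adjusted p = 0.28 over 7 shares). The mean share of Pfkfb3 differed by -16.5 percentage points, and by -22.7 without M92KO replicate 1. Pfkfb3 was the most abundant of the 4 per length in every library. The share of Pfkfb1 was 13.4% ± 0.95 in WT and 20.04% ± 4.32 in M92KO libraries, without overlap (exact permutation p = 0.1, adjusted p = 0.28, n = 3 each). Shares within a set depend on each other, so this is not a result separate from the share of Pfkfb3. The level of Pfkfb1 itself overlapped between the groups (log2 fold change 0.03). Mean shares of Pfkfb4 were 11.6% ± 2.55 in WT and 17.4% ± 3.39 in M92KO libraries, with overlap. Those of Pfkfb2 were 6.60% ± 0.95 and 10.7% ± 3.26, also with overlap. The summed level was 142 ± 16.3 CPM per kb in WT and 99.7 ± 26.2 CPM per kb in M92KO libraries, and M92KO replicate 1, with 129.7 CPM per kb, was above the lowest WT library at 129.3.

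**Figure D2:**
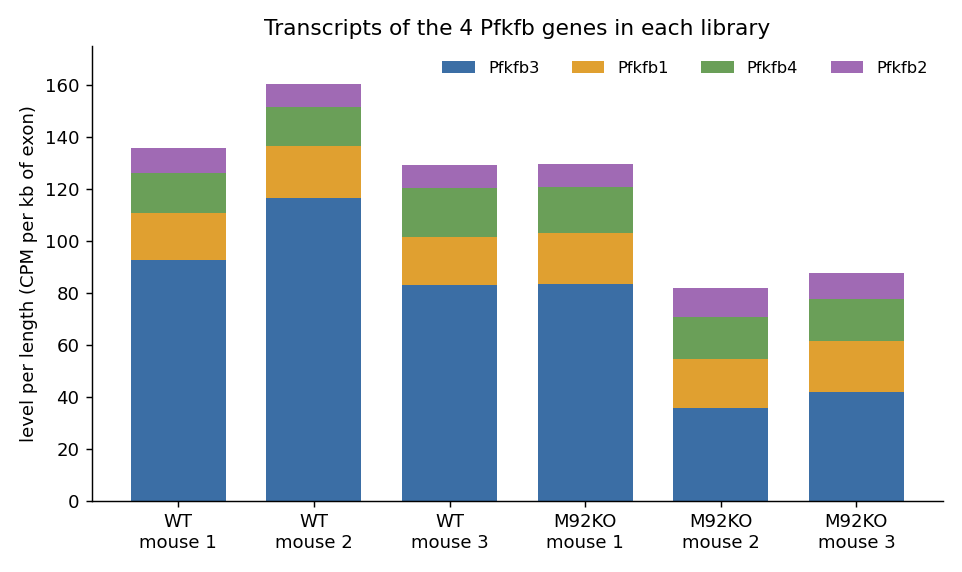
Stacked bars of the per-length level (CPM per kb of exon) of the 4 Pfkfb genes in each of the 6 libraries. Pfkfb3 (blue) is at 35.8 and 41.7 CPM per kb in M92KO replicates 2 and 3 against 83.1 to 117 CPM per kb in WT libraries, while M92KO replicate 1, with 83.4 CPM per kb, is within the WT range.

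Fbp2 encodes the muscle fructose bisphosphatase, which removes fructose 1,6-bisphosphate (ENSMUSG00000021456, chr13:62836877-62858422, minus strand). Its level was 26.6, 34.2 and 27.2 CPM in WT libraries and 34.2, 25.1 and 20.5 CPM in M92KO libraries. M92KO replicates 2 and 3 were below all WT libraries and M92KO replicate 1 level with the highest. Fbp2 had a log2 fold change of -0.14 (SE 0.18, 95% interval -0.55 to 0.27), with an adjusted p-value of 0.805 in edgeR. Without M92KO replicate 1 it was -0.36, with an unadjusted p-value under 0.05 and an adjusted p-value of 0.204, and without M92KO replicate 3 it was 0.017. The log2 ratio of Fbp2 to Pfkm differed by -0.31, with overlap (-7.56 ± 0.20 in WT and -7.87 ± 0.37 in M92KO libraries, exact permutation p = 0.3, adjusted p = 0.3, n = 3 each). Without M92KO replicate 1 the difference in this ratio was -0.51, without M92KO replicate 3 it was -0.15 and without WT replicate 2 it was -0.20. Fbp1, the liver form (ENSMUSG00000069805, chr13:62864753-62888282, minus strand), was listed with 4, 3 and 12 reads in WT libraries, and with 5, 3 and 2 reads in M92KO libraries. These lie at or near the floor of 3 counts, so no fold is given, and a difference was not detectable at this depth.

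Over the whole group, 2 of 8 genes tested (25%) passed the unadjusted threshold of 0.05 in edgeR, where 12.4% of all genes tested did. Of these, Pfkl was the 1 higher gene (5.47% of all genes were higher) and Pfkfb3 the 1 lower gene (6.92% were lower). After adjustment over all genes 0 of 8 were left in edgeR, as were 0 of 15788 genes (0%). DESeq2 called 1 of 8, Pfkl, beside 2.41% of the genes it adjusted. The M92KO values lay all on one side of the WT values in 2 of 8 genes (25%), Pfkm and Pfkl, and in 18.4% of all genes. Without M92KO replicate 1, 5 of 8 passed the unadjusted threshold (Pfkm, Pfkl, Pfkfb2, Pfkfb3 and Fbp2), as did 18.6% of all genes, and Pfkfb3 alone was left after adjustment, beside 2.5% of all genes. The log2 fold change was above 0 in 5 and below 0 in 3 of the 8 genes, with a median of 0.039 against -8.07e-05 for all genes tested. With 8 genes, nothing particular to the group can be read from these shares.

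**Figure D3:**
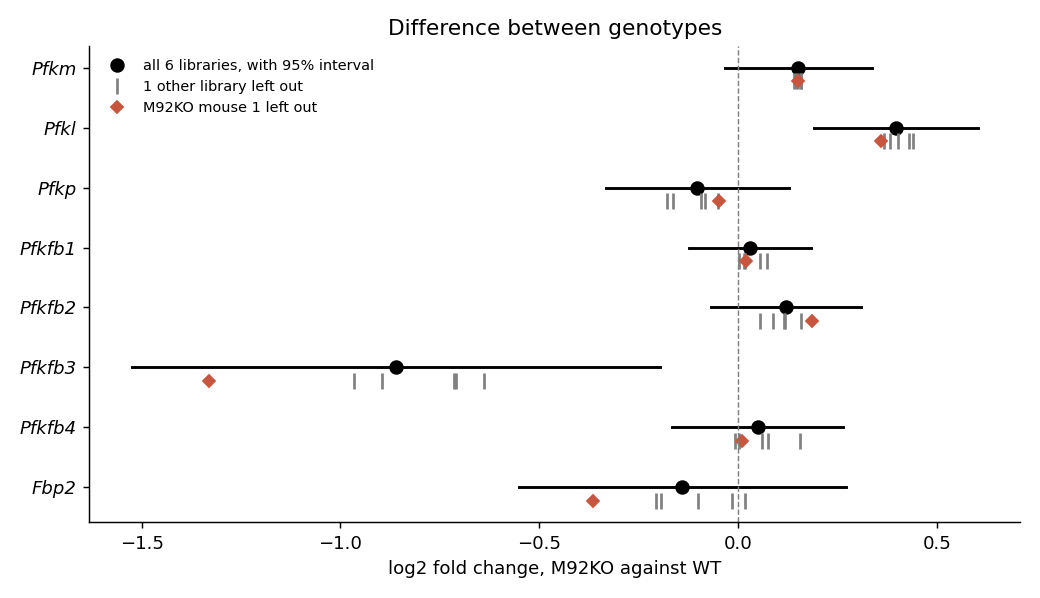
Log2 fold change (M92KO against WT) of the 8 genes tested, with the 95% interval from all 6 libraries (black), the values with 1 other library left out (grey ticks) and the value without M92KO replicate 1 (red diamond). The interval of Pfkl (0.19 to 0.60) lies above 0, that of Pfkfb3 (-1.53 to -0.20) lies below 0 and is the widest, and the red diamond of Pfkfb3 is at -1.33.

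The neighbouring steps were described with 4 lists that hold 42 genes, of which 35 were tested. At an unadjusted p-value under 0.05 in edgeR, 2 of the 35 were higher and 1 was lower, with a median log2 fold change of 0.046. Of all genes tested, 5.47% were higher and 6.92% lower at this threshold, so these counts show nothing particular to the lists. In upper glycolysis, 8 of 10 genes were tested, 2 were higher and 0 lower, with a median of 0.012. The higher gene described here is Hk2, the insulin-responsive hexokinase of muscle. It had 495, 463 and 439 CPM in WT libraries and 456, 715 and 720.1 CPM in M92KO libraries. As in Pfkfb3, M92KO replicate 1 lay among the WT libraries, but the other M92KO libraries were higher, not lower. The log2 fold change of Hk2 was 0.44 (SE 0.16, adjusted p-value of 0.343 in edgeR).

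Below the phosphofructokinase step, 12 of 14 genes of lower glycolysis were tested, with 0 higher, 0 lower and a median of 0.063. The smallest p-value was that of Gapdh, which encodes glyceraldehyde 3-phosphate dehydrogenase, with a log2 fold change of 0.27 (SE 0.14, adjusted p-value of 0.509 in edgeR). Of 6 gluconeogenesis genes, 4 were tested, with 0 higher, 0 lower and a median of 0.089, and Pcx (pyruvate carboxylase) came nearest with 0.09 (SE 0.081, adjusted p-value of 0.703 in edgeR). G6pc and G6pc2, catalytic subunits of glucose 6-phosphatase, were at or under the floor in every library. The last list covers other routes linked to fructose 6-phosphate or fructose 2,6-bisphosphate, chiefly the pentose phosphate and hexosamine routes. Some of its genes, H6pd among them, encode enzymes of these routes that use other sugar phosphates. Of its 12 genes, 11 were tested, with 0 higher and 1 lower and a median of 0.010. The lower gene was H6pd, the hexose 6-phosphate dehydrogenase of the endoplasmic reticulum, with 77.3, 78.4 and 83.6 CPM in WT and 74.2, 69.5 and 66.0 CPM in M92KO libraries. Its log2 fold change was -0.19 (SE 0.071, adjusted p-value of 0.348 in edgeR).

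**Figure D4:**
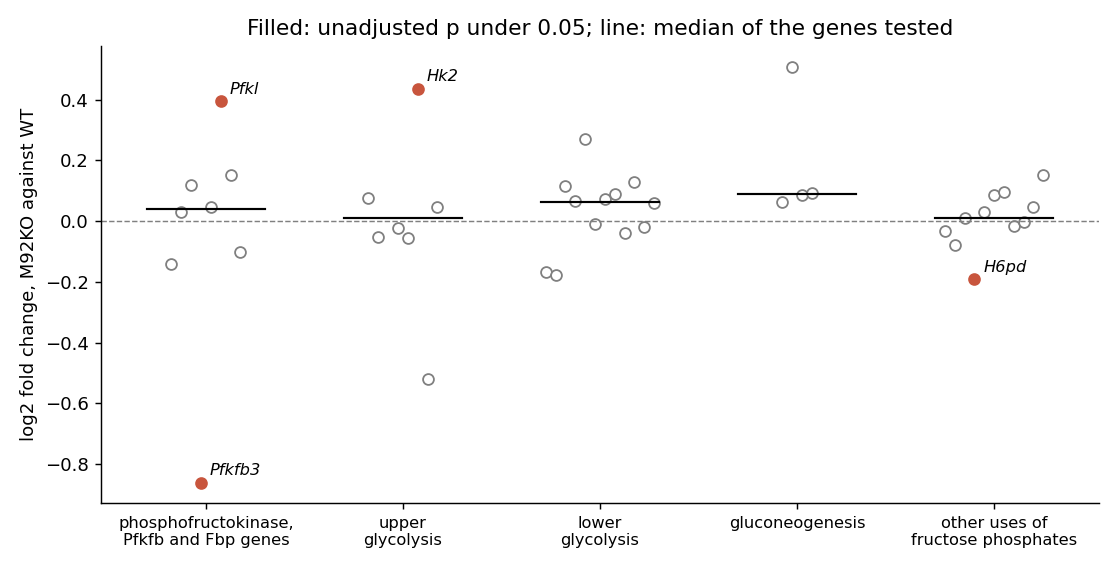
Log2 fold change (M92KO against WT) of the genes reported among the phosphofructokinase, Pfkfb and Fbp genes and the 4 neighbouring lists, with filled points for an unadjusted p-value under 0.05 and a line at the median of all genes tested on each list. The medians lie between 0.010 and 0.089, and the 4 filled points are Pfkl, Pfkfb3, Hk2 and H6pd.

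The genes with the most similar profiles were sought among 8737 genes with a mean of at least 10 CPM, by the root mean square difference of centred log2 CPM over the 6 libraries. For Pfkm these were Ppp2r5d, Cdadc1 and Psma6, at differences of 0.0096 to 0.015 beside a spread of Pfkm itself of 0.076. For Pfkl they were Pacsin3, Mir133a-1hg and Popdc3 (0.043 to 0.055, spread 0.21), and for Pfkp Tmc7, Entpd5 and Plekhm1 (0.033 to 0.039, spread 0.11). Those nearest to Pfkfb3 were Fmod, Ces1d and Ccrl2, at 0.19 to 0.27 beside a spread of 0.62, so the profile of Pfkfb3 was followed least closely in absolute terms. Pfkfb1 was nearest to Mmadhc, Ubl7 and Adh5 (0.012 to 0.016, spread 0.052), Pfkfb2 to Tmem167, Psd3 and Ints4 (0.018 to 0.024, spread 0.10) and Pfkfb4 to Ngdn, Kat5 and Fmnl1 (0.028 to 0.032, spread 0.11). For Fbp2 the nearest were Nrarp, Slc25a27 and Gm46773 (0.071 to 0.083, spread 0.26). These likenesses are over 6 libraries of 2 groups and are descriptions only.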

How the data were processed

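Libraries of 6 Gas muscles were made with a SMARTer mRNA kit, per the labels. The authors deposited raw counts per gene symbol without normalization. The submitters' processing notes name the build GRCm38 (mm10). The aligner, the counting program, its strandedness and the annotation are not given in the sources used here. The study's methods list quantile normalization, log2 after adding 1, and limma.

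The main test was that of edgeR 4.0.16, run in R 4.3.3 (filterByExpr with minimum count 10 and minimum total count 15, TMM, glmQLFit and glmQLFTest, two-sided, no covariate), which tested 15788 genes. Adjustment was by Benjamini-Hochberg over all of them, and the fit was tested on simulated data. The unadjusted threshold was 0.05. Replicates are samples of one group as labelled, so edgeR's p-values weigh the difference between groups against the spread among replicates. That spread was estimated with information shared over all genes. Ratios used log2 of counts + 0.5 and an exact permutation test over the 6 libraries. Per-length levels used merged GENCODE M21 exons, and all 9 genes were matched by symbol. Mature microRNAs and promoters came from RefSeq tables of GRCm38.p6. Protein sequences were not used here.

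All 9 genes were named. Listed neighbours were named where they had an unadjusted p-value under 0.05, and otherwise the gene with the smallest p-value where none had. Some genes under this rule are counted but not reported here. For profiles, the 3 nearest genes were named. Members and lists were chosen with earlier results of these data known.

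The alternatives were DESeq2 1.42.0 (size factors in edgeR, and the Wald test), no filter, at least 10 counts in every library, the study's steps with limma 3.58.1, the replicate number as a block, offsets for GC content and length (lowess span 0.3), other gene lengths, a pseudocount of 1 and each library left out. Tables used Python 3.11.15 (pandas 2.3.3, numpy 2.4.6), permutation tests scipy 1.17.1, and plots matplotlib 3.10.9.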

Additional observations from a re-analysis of the deposited data

How the results depend on the processing

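Pfkl was higher in the M92KO mice at an unadjusted p-value under 0.05 in every alternative run (6 of 6 with a library left out, 8 of 8 others). These runs share the same libraries. The adjusted p-value of Pfkl was under 0.05 in DESeq2's Wald test only (0.0363) and reached 0.579 in edgeR without WT replicate 2. Other results moved. The number of genes with an adjusted p-value under 0.05 was 322 with DESeq2, 42 with the study's steps, 6 without a filter, 2 with the replicate block and 2 with the block and GC and length offsets, and 0 to 401 with each library left out, when unadjusted calls numbered 1222 to 2984. Of the group's genes, 1 was called with the study's steps and 1 to 5 with a library left out. Pfkm (0.15) passed the unadjusted threshold with DESeq2, and Pfkfb3 (-1.001) did not with the study's steps. With each library left out, log2 fold changes were 0.14 to 0.16 for Pfkm, -0.18 to -0.049 for Pfkp, 0.0013 to 0.071 for Pfkfb1, 0.056 to 0.18 for Pfkfb2, -1.33 to -0.64 for Pfkfb3, -0.0090 to 0.15 for Pfkfb4 and -0.36 to 0.017 for Fbp2, and -0.51 to -0.15 for the log2 ratio of Fbp2 to Pfkm. The study's steps gave 0.085 for Pfkm and 0.017 for Pfkfb1, and GC and length offsets gave -0.042 for Pfkp and 0.019 for Pfkfb1. The differences in share of the phosphofructokinase level, in percentage points, depend on the length. Without length they were 0.0197 for Pfkm, 0.0371 for Pfkl and -0.0567 for Pfkp. With the longest transcript it was 0.0286 for Pfkl. With protein-coding exons, a choice made after seeing the data, they were 0.0098, 0.0325 and -0.0423. The Pfkfb shares moved with the length too. The difference for Pfkfb3 was -15.0 without length and -16.8 with protein-coding exons (exact permutation p = 0.2 and 0.1). For Pfkfb1 it was 4.81 and 7.73. The labels give replicate numbers but no shared litter or day, and same-numbered deviations correlated only at 0.081, 0.038 and 0.015, so the numbers were not used as pairs. As a hint from the data, 5 of 6 libraries correlated best with their own number in the other group, and WT replicate 3 with number 2. These picks share the same correlations, of deviations centred within each group, so they are not 6 independent matches. The block gave 1691 unadjusted calls and -0.95 for Pfkfb3, and changed the call of none of the 8 genes. Pfkl, with 415 to 554 counts a library, is the least deeply sampled of the genes called.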
